A study of Mus musculus with 9 samples.

Results

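The transcripts described here come from 30 genes of cholesterol metabolism, out of 17266 genes with values. They were chosen by name. A first group of 20 encodes enzymes of cholesterol synthesis, and the other 10 act in sterol sensing, in uptake and movement of cholesterol, in its efflux and in its storage as esters. The cells were lineage-negative bone marrow cells, taken with magnetic beads from untreated female C57B/6 mice at 6 weeks of age. A retrovirus gave them the MigR1-IRES-GFP vector alone (empty vector), the same vector with ETV6-NCOA2, or the same vector with KAT6A-NCOA2. All 3 groups then spent 5 days in RPMI with the cytokines SCF, IL-3 and IL-6, and were sorted for GFP, which the vector expresses from the same transcript, before bulk sequencing of polyadenylated RNA. In each fusion, part of NCOA2, which is a coactivator of nuclear receptors, is linked to part of ETV6, a transcription factor, or of KAT6A, a histone acetyltransferase. There are 3 libraries per group. The labels do not say whether these came from separate mice or cultures, so p-values reflect the library-to-library spread alone, and that spread may be technical.

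Animal cells make cholesterol from acetyl-CoA, first through mevalonate to isoprenoid units, then through squalene and a series of sterols. When sterols run low in the endoplasmic reticulum, SCAP carries the transcription factor SREBP-2 (Srebf2) to the Golgi, where it is cleaved and freed to switch on most genes of this route. INSIG proteins hold SCAP back when sterols are plentiful. Oxidised sterols instead activate the LXR receptors, which raise the exporters ABCA1 and ABCG1, and macrophages depend on this arm to dispose of the cholesterol they take up.

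The classical binding site of SREBP is written TCACNCCAC, and it often works beside CCAAT boxes, which bind NF-Y. Both were searched on both strands of RefSeq promoter windows on GRCm38.p6, which run from 250 bases before to 50 bases after an annotated start. Windows were found for 25 of the 30 genes. TCACNCCAC occurred for 1 of these 25 genes (4.0%), Hmgcs1, at position -137 from the start. It occurred for 1.38% of the tested genes with a window and 1.44% of all genes. CCAAT or its complement ATTGG occurred for 16 of the 17 synthesis enzymes with a window (94.1%), against 42.7% of the tested genes with a window and 41.1% of all genes. GGGCGG, which binds Sp1, occurred for 88.2% of those enzymes and 67.5% of tested genes, and CACGTG for 17.6% and 11.7%. Such a match is only a run of letters. The windows of 4 genes whose transcripts changed are printed 5′ to 3′ with TCACNCCAC, CCAAT and ATTGG in capitals. Hmgcs1 is shown for its TCACNCCAC match, Lbr and Cyp51 for their large changes, and Insig1 as a gene of sterol control. The last 3 were picked after their values were seen.
Hmgcs1 (chr13:119690101-119690400, plus strand): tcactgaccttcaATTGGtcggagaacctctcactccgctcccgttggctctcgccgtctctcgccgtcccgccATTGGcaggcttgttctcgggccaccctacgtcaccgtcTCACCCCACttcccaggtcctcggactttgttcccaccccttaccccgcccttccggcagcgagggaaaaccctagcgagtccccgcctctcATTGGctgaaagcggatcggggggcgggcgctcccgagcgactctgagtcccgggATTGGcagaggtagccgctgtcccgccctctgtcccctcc
Lbr (chr1:181842352-181842651, minus strand): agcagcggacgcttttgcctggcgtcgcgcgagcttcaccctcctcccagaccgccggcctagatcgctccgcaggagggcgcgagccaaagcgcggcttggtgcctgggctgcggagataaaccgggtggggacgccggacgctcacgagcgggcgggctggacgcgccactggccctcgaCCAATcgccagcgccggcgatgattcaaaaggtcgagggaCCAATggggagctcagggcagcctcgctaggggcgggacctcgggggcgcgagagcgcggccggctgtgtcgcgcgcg
Cyp51 (chr5:4104648-4104947, minus strand): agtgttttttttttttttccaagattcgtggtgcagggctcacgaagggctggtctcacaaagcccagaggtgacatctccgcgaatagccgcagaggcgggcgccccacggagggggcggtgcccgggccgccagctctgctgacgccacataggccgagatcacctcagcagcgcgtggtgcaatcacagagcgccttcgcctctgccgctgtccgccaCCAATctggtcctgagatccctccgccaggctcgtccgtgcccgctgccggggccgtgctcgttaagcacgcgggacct
Insig1 (chr5:28071162-28071461, plus strand): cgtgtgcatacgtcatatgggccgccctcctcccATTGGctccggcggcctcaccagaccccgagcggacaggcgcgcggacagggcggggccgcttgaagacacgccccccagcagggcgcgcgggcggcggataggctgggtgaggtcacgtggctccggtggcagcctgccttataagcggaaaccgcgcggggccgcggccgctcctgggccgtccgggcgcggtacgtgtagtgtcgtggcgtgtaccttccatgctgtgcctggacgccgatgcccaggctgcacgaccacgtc
In these windows Hmgcs1 holds 4 CCAAT or ATTGG runs, Lbr 2, Cyp51 1 and Insig1 1.

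Sequencing depth was similar, with 17.1 to 20.4 M reads per library. Higher counts with the fusions were not seen at the mouse genes they are named after. Whether reads from the fusions would be counted at these genes was not tested, so their counts do not measure fusion expression. Ncoa2 lay between 1255 and 1421 normalized counts and Kat6a between 1324 and 1538 in all 9 libraries. Etv6 had 1855 to 2398 with the empty vector, 2009 to 2152 with ETV6-NCOA2 and 1319 to 1594 with KAT6A-NCOA2, where it was lower (log2 fold change -0.54, adjusted p = 0.0039). A library of the control group stood apart. Empty vector replicate 2 lay at -14.4 on the first principal component of all tested genes (51.2% of the variance), against -52.0 and -34.2 for the other empty vector libraries and -13.4 to 7.7 for ETV6-NCOA2. Among the synthesis enzymes it was the lowest of the empty vector libraries for 19 of 20, the exception being Dhcr7, whereas it was lowest for 37.3% of all tested genes. Its level over the 20 enzymes had a median of 64.6% of the mean of replicates 1 and 3, from 42.5% for Acat2 to 109% for Dhcr7. For 9 of the 20 it fell inside the range of the 6 fusion libraries, a smaller share than the 68.9% of all tested genes. Results against the empty vector are therefore given with and without this library, which was singled out from these same values. As it was the lowest control for 19 enzymes, leaving it out must lower their fold changes. Among the other 10 genes it was the lowest control for 6 and the highest for 4, which leaving it out must lower and raise. Calls gained without it are therefore no separate support. Both fusions are compared with the same controls, so the comparisons are not independent of each other.

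**Figure D1:**
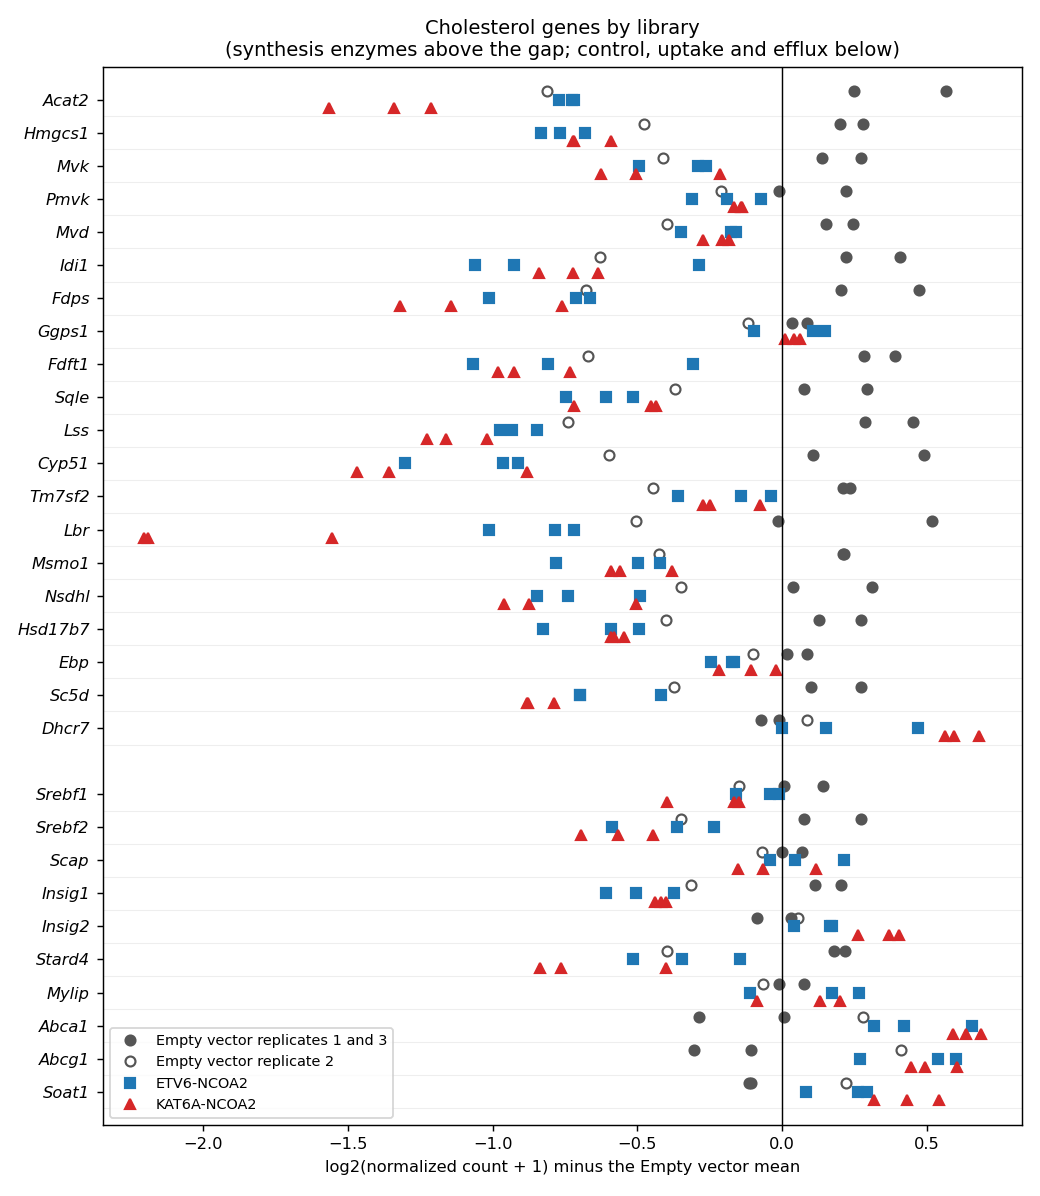
Level of each of the 30 genes in each of the 9 libraries, as log2(normalized count + 1) minus the mean of the 3 empty vector libraries. The open circle is empty vector replicate 2, which lies left of the other empty vector libraries for 19 of the 20 synthesis enzymes in the upper block.

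With KAT6A-NCOA2, most enzymes of cholesterol synthesis were lower than with the empty vector and 1 enzyme, Dhcr7, was higher. Of the 20 enzymes, 12 fell and 1 rose at an adjusted p below 0.05 (limma, Benjamini-Hochberg over 13750 tested genes). For comparison, 25.4% of all tested genes were called in this contrast, 13.7% lower and 11.6% higher. The groups did not overlap for 12 enzymes that were lower and for Dhcr7, where 21.7% of all tested genes were lower and 21.2% higher without overlap. These 12 include Idi1, which was not called, and leave out Msmo1, which was. The median log2 fold change of the 20 was -0.62, against 0.02 over all tested genes. In bulk RNA, fewer cells of a type and less RNA per cell cannot be told apart. Without empty vector replicate 2, 16 enzymes were lower and Dhcr7 was higher, with a median of -0.84, where 15.6% of all tested genes were called lower and 15.8% higher.

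In the mevalonate part of the route, 3 of 8 enzymes fell with KAT6A-NCOA2. Acat2, the cytosolic thiolase that starts the route by making acetoacetyl-CoA, had 432, 165 and 346 normalized counts in the empty vector libraries (replicates 1, 2 and 3 in that order, here and below), and KAT6A-NCOA2 had 125, 97.8 and 115. All KAT6A-NCOA2 libraries were below all empty vector libraries, with a log2 fold change of -1.37 ± 0.28 (SE, adjusted p = 0.0062). Acat2 shares 39.1% of its 50-base words with Acat3, a near copy listed at 0.87 to 7.01, so its reads could have been split between the pair. Hmgcs1, which makes HMG-CoA from acetoacetyl-CoA and whose promoter window is printed above, had 1957, 1157 and 1852 with the empty vector and 1071, 980 and 978 with KAT6A-NCOA2. The groups did not overlap, and the log2 fold change was -0.68 ± 0.16 (adjusted p = 0.013). Fdps, which builds farnesyl pyrophosphate, had 454, 204 and 376 against 193, 130 and 147. Again no library of the fusion reached the lowest control, although replicate 2 of the empty vector came close (log2 fold change -1.07 ± 0.26, adjusted p = 0.014). Fdps shares 26.2% of its 50-base words with an overlapping predicted gene and pseudogenes and is uncertain for that reason.

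The other 5 mevalonate enzymes did not pass the test with KAT6A-NCOA2. Idi1, the isopentenyl isomerase, was low throughout, with 106, 58.3 and 121 in the empty vector libraries and 58.1, 54.7 and 50.3 in the KAT6A-NCOA2 libraries. These ranges nearly met at empty vector replicate 2 (log2 fold change -0.73 ± 0.28, adjusted p = 0.078), and 17.7% of Idi1's 50-base words occur in other genes. The kinases Mvk and Pmvk and the decarboxylase Mvd, which turn mevalonate into isopentenyl pyrophosphate, had log2 fold changes of -0.45, -0.15 and -0.22 with overlapping groups. Ggps1, which makes geranylgeranyl pyrophosphate on a side branch, had 299, 259 and 289 against 284, 294 and 290, and its interval ran from -0.17 to 0.25 on the log2 scale. Without empty vector replicate 2, Mvk, Mvd and Idi1 passed the test as well, at adjusted p of 0.0049, 0.0034 and 0.0068, while Pmvk (0.071) and Ggps1 (0.90) did not.

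Of the 12 enzymes from squalene onwards, 9 fell with KAT6A-NCOA2, Dhcr7 rose, and Tm7sf2 and Ebp did not pass. Lbr fell furthest of the 30 genes. Its protein reduces a double bond of the sterol ring and also sits in the inner nuclear membrane, where it binds lamin B and chromatin. Lbr had 1785, 879 and 1235 normalized counts in the empty vector libraries, 723, 758 and 618 with ETV6-NCOA2 and 424, 272 and 270 with KAT6A-NCOA2. The 3 groups formed separate steps with no overlap, and the log2 fold change of KAT6A-NCOA2 against empty vector was -1.98 ± 0.24 (adjusted p = 0.00055), 3.95-fold lower. Tm7sf2, which encodes the other reductase for the same step, had overlapping groups instead. It had 317, 198 and 312 against 256, 223 and 227, with empty vector replicate 2 below every fusion library of both kinds and a log2 fold change of -0.20 ± 0.17 (adjusted p = 0.43). Without that replicate Tm7sf2 was lower by the test (-0.42, adjusted p = 0.022). Part of Tm7sf2 (9.87% of its 50-base words) is shared with Vps51, which overlaps it.

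Cyp51, the lanosterol demethylase, had 1974, 928 and 1515 with the empty vector and 762, 508 and 548 with KAT6A-NCOA2. The highest fusion library stayed below empty vector replicate 2, and the log2 fold change was -1.24 ± 0.24 (adjusted p = 0.0054). Lss, which folds squalene epoxide into lanosterol, had 1272, 556 and 1135 against 458, 396 and 415. It too fell without overlap (log2 fold change -1.14 ± 0.24, adjusted p = 0.0076). Sc5d, a desaturase late in the route, had 594, 427 and 669 against 300.5, 299.6 and 320, so the fusion libraries agreed closely and lay below all controls (-0.85 ± 0.15, adjusted p = 0.0032). Nsdhl, which acts in removing the methyl groups of lanosterol's ring, had 937, 594 and 776 against 533, 412 and 388 (-0.78 ± 0.17, adjusted p = 0.0087), again without overlap.

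The other enzymes that fell did so by less than Lbr, Cyp51 and Lss. Fdft1, squalene synthase, had a log2 fold change of -0.88 (adjusted p = 0.034), and 18.3% of its exon length overlaps Ctsb. Sqle, squalene epoxidase, fell by 0.54 (adjusted p = 0.025), and Hsd17b7, which works with Nsdhl, fell by 0.57 (adjusted p = 0.026), both on the log2 scale. Msmo1, the methylsterol oxidase, fell by 0.51 (adjusted p = 0.042) although its groups overlapped, since KAT6A-NCOA2 replicate 1 (1148) was above empty vector replicate 2 (1110). Ebp, a sterol isomerase, had 902, 792 and 859 against 837, 731 and 789, overlapping groups with an interval from -0.28 to 0.05.

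Dhcr7, whose protein carries out the closing reduction that yields cholesterol, went the other way. It had 1840, 1969 and 1764 normalized counts with the empty vector, 2573, 2064 and 1854 with ETV6-NCOA2, and 2801, 2744 and 2977 with KAT6A-NCOA2. The KAT6A-NCOA2 libraries were the 3 highest of the 9, and empty vector replicate 2 was here the highest of its group. The log2 fold change of KAT6A-NCOA2 against empty vector was 0.61 ± 0.11 (adjusted p = 0.0030), 1.53-fold higher, and 0.66 without empty vector replicate 2 (adjusted p = 0.0022). Dhcr7 was called higher under each of the alternatives tried and in each of the 6 fits that left out a library.

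**Figure D2:**
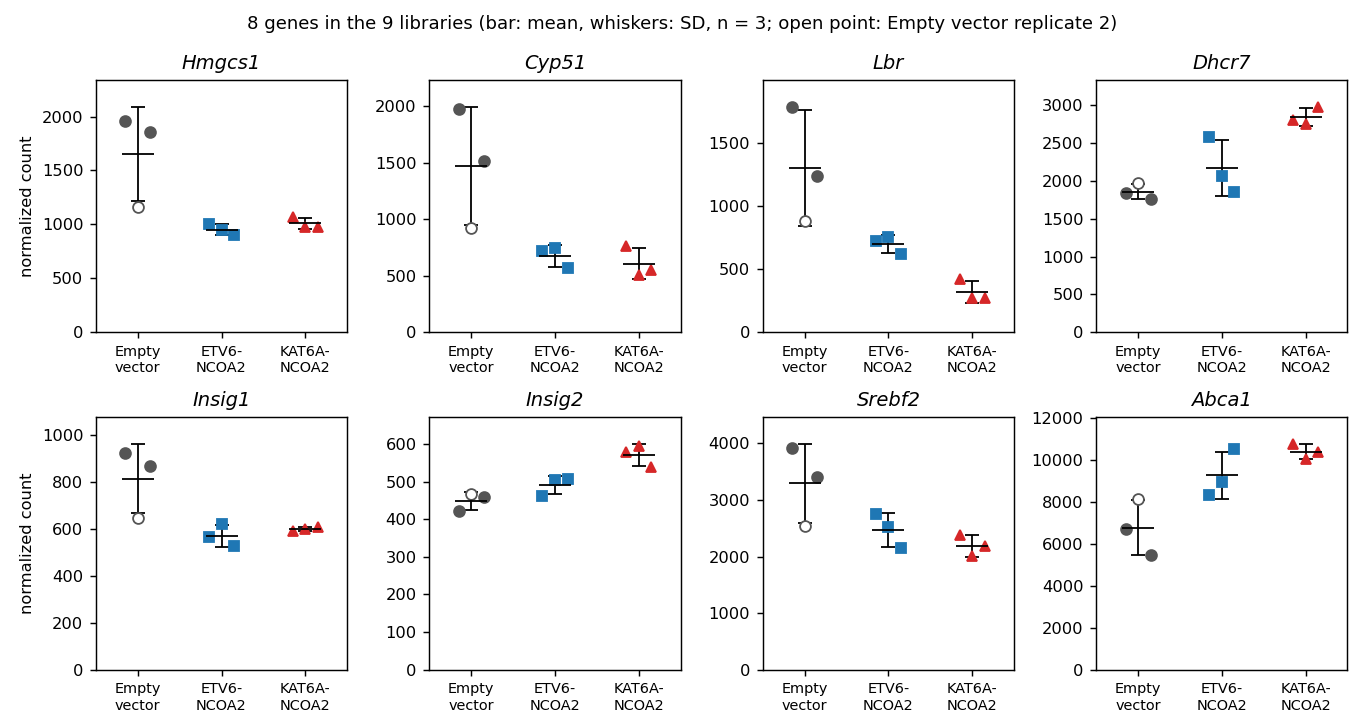
Normalized counts of 8 genes in the 9 libraries, by group, on axes that start at 0, with the mean (bar) and SD (whiskers, n = 3), and with empty vector replicate 2 as an open circle. Lbr steps down from empty vector through ETV6-NCOA2 to KAT6A-NCOA2, where the 3 libraries hold 424, 272 and 270, while Dhcr7 is highest with KAT6A-NCOA2.

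How many enzymes passed the test with KAT6A-NCOA2 depended on single libraries. The count of 12 became 6 when empty vector replicate 1, empty vector replicate 3, KAT6A-NCOA2 replicate 2 or KAT6A-NCOA2 replicate 3 was left out, and 16 without empty vector replicate 2. Calls over all tested genes moved the same way, from 3488 to 1779, 2298, 1866 and 1887 in that order, and to 4320 without empty vector replicate 2. Acat2, Lss, Cyp51, Lbr, Nsdhl and Sc5d were called lower in all 6 of these fits. In every fit the 12 kept their direction, with Lbr between -2.23 and -1.72 and Cyp51 between -1.53 and -0.99 on the log2 scale.

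With ETV6-NCOA2, enzyme levels were also mostly below the empty vector, but only Hmgcs1 and Cyp51 fell by the test. These are 2 of the 20 enzymes, where 2.84% of all tested genes were called, 1.82% lower and 1.02% higher. Means were lower for 18 of the 20, and the median log2 fold change was -0.63, against 0.01 over all tested genes. The groups did not overlap for 9 enzymes, all lower, where 12.5% of all tested genes were lower without overlap. Hmgcs1 had 1006, 946 and 906 normalized counts with ETV6-NCOA2, below the 1957, 1157 and 1852 of the empty vector, with a log2 fold change of -0.76 ± 0.16 (adjusted p = 0.037). Cyp51 had 720, 746 and 569, below the 1974, 928 and 1515 of the empty vector, with a log2 fold change of -1.06 ± 0.24 (adjusted p = 0.048). For both, ETV6-NCOA2 libraries lay well under empty vector replicates 1 and 3 and closer to replicate 2.

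Leaving out empty vector replicate 2 changed this count from 2 to 15 enzymes lower, with 6.12% of all tested genes lower. That library was the lowest control for each of the 15, so their fold changes had to fall. Leaving out any other library of this contrast, that is empty vector replicate 1 or 3 or ETV6-NCOA2 replicate 1, 2 or 3, gave 0. In those fits 61 to 218 of all 13750 tested genes were called, against 390 with all libraries. With all libraries, the enzymes lower by DESeq2 were 12 and by edgeR 6, and 14 were at an unadjusted limma p below 0.05. Over all tested genes, DESeq2 called 1016 and edgeR 506 in either direction, and 2832 had such an unadjusted p. Without replicate 2 the median was -0.82, and 18 enzymes lay lower without overlap, where 20.6% of all tested genes did. The enzymes called then were Acat2, Hmgcs1, Mvk, Mvd, Idi1, Fdps, Fdft1, Sqle, Lss, Cyp51, Lbr, Msmo1, Nsdhl, Hsd17b7 and Sc5d. Lss, for example, had 487, 517 and 473 with ETV6-NCOA2, against 1272, 556 and 1135, and its log2 fold change went from -0.92 (adjusted p = 0.070) to -1.29 (adjusted p = 0.00022). Lbr went from -0.84 (adjusted p = 0.085) to -1.09 (adjusted p = 0.010), and Fdps from -0.80 (adjusted p = 0.12) to -1.13 (adjusted p = 0.0049). Pmvk, Ggps1, Tm7sf2, Ebp and Dhcr7 passed in neither case, and the log2 fold change of Ggps1 was 0.05 with that library and -0.0081 without it.

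**Figure D3:**
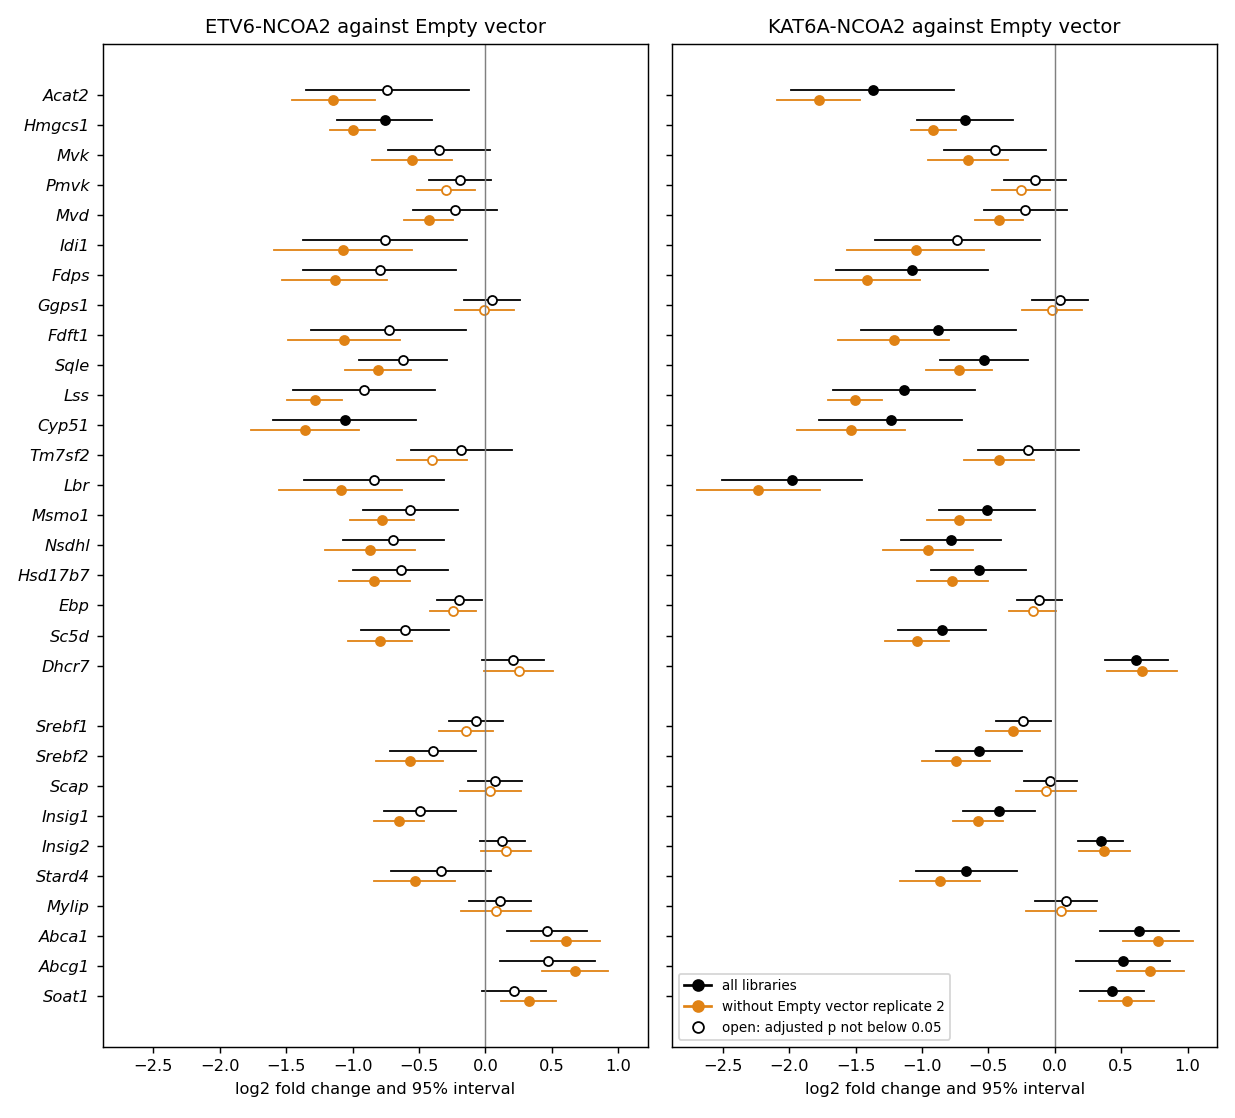
Log2 fold change with its 95% interval for the 30 genes, ETV6-NCOA2 (left) and KAT6A-NCOA2 (right) against empty vector, with all libraries (black) and without empty vector replicate 2 (orange), filled where the adjusted p is below 0.05. Leaving out that library moves the synthesis enzymes in the upper block to the left except Dhcr7, and the number lower by the test goes from 2 to 15 (left) and from 12 to 16 (right).

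Between the fusions, Lbr was the member that differed by the test. It was lower with KAT6A-NCOA2 than with ETV6-NCOA2, with a log2 fold change of -1.14 ± 0.24 (adjusted p = 0.028), 2.21-fold lower, and no overlap. Here 3.09% of all tested genes were called, 2.84% lower and 0.247% higher, and 1 of the 30 members. With the replicate number as a block in limma, Lbr had an adjusted p of 0.0038. Dhcr7, higher with KAT6A-NCOA2 by 0.41 on the log2 scale, passed as well (0.044, against 0.069 without the block). The pairing check allowed a block between the fusions only. The blocked fit nevertheless took in all 9 libraries, so it also grouped the empty vector libraries by number, and its p-values are uncertain for that reason. In that fit 7.15% of all tested genes were called, 5.32% lower and 1.83% higher. Left out in turn, a library took the adjusted p of Lbr to between 0.013 and 0.14, and it passed in 1 of 6 fits, the one without KAT6A-NCOA2 replicate 1.

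The other 28 members did not pass between the fusions in the limma fit of all 9 libraries, with or without the block. Of the 10 control, uptake and efflux genes 1 had an unadjusted p below 0.05, with 0 called by DESeq2 or edgeR. The median over the 20 enzymes was -0.02. For Hmgcs1 the 95% interval ran from -0.27 to 0.44 and for Cyp51 from -0.72 to 0.36, so differences of up to these sizes remain possible. Acat2, Lss and Sc5d were lower in every KAT6A-NCOA2 library than in any ETV6-NCOA2 library without passing the test, at log2 fold changes of -0.63, -0.22 and -0.24. With Lbr these make 4 of 20, where 14.4% of all tested genes were lower without overlap. Acat2 did pass in 1 alternative, the limma fit of only the 6 libraries compared, where 823 of all tested genes were called.

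Among the genes of sterol control, Srebf2 and Insig1 fell and Insig2 rose with KAT6A-NCOA2. Over all 10 genes of control, uptake and efflux, 4 rose and 3 fell in that contrast, where 11.6% of all tested genes were higher and 13.7% lower, and 0 passed with ETV6-NCOA2 by limma (4 at an unadjusted p below 0.05, 2 by DESeq2, 1 by edgeR). Srebf2, which encodes SREBP-2, had 3917, 2543 and 3411 normalized counts with the empty vector, 2754, 2516 and 2154 with ETV6-NCOA2 and 2377, 2001 and 2187 with KAT6A-NCOA2. The KAT6A-NCOA2 libraries lay below all controls (log2 fold change -0.57 ± 0.15, adjusted p = 0.018), whereas an ETV6-NCOA2 library overlapped empty vector replicate 2. Without that replicate Srebf2 was lower with ETV6-NCOA2 too (-0.57, adjusted p = 0.012). Srebf1, which encodes the SREBP-1 forms that mainly drive fatty acid genes, had a log2 fold change of -0.24 with KAT6A-NCOA2 (adjusted p = 0.084), and fell without empty vector replicate 2 (-0.31, adjusted p = 0.026). Scap, the SREBP escort, had 785, 713 and 749 against 715, 674 and 812, overlapping groups with an interval from -0.23 to 0.17.

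The INSIG genes moved in opposite directions. Insig1, itself a target of SREBP, had 926, 647 and 871 with the empty vector, 567, 622 and 529 with ETV6-NCOA2 and 594, 602 and 610 with KAT6A-NCOA2. All 6 fusion libraries were below the 3 controls, by a log2 fold change of -0.42 ± 0.12 with KAT6A-NCOA2 (adjusted p = 0.030) and -0.49 ± 0.12 with ETV6-NCOA2 (adjusted p = 0.059, and 0.0025 at -0.65 without empty vector replicate 2). Insig2, which holds SCAP by the same means but is not raised by SREBP, had 422, 467 and 458 with the empty vector, 462, 503 and 506 with ETV6-NCOA2 and 580, 594 and 539 with KAT6A-NCOA2. The KAT6A-NCOA2 libraries were the 3 highest of the 9 (log2 fold change 0.35 ± 0.08, adjusted p = 0.0094). Insig2 was called in all 6 fits that left out a library and Insig1 in 1 of them, the one without empty vector replicate 2.

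Genes that move cholesterol out of the cell or store it were higher with KAT6A-NCOA2. Of the 6 fits that left out a library, Abca1 was called in 6, Soat1 in 2 and Abcg1 in 1. Abca1, the exporter that loads cholesterol onto lipid-poor apolipoprotein, had 6729, 8130 and 5487 normalized counts with the empty vector, 8339, 8969 and 10539 with ETV6-NCOA2 and 10771, 10074 and 10405 with KAT6A-NCOA2. Every fusion library exceeded every control, and the log2 fold change was 0.64 ± 0.14 with KAT6A-NCOA2 (adjusted p = 0.0076) and 0.46 ± 0.14 with ETV6-NCOA2 (adjusted p = 0.091). Abcg1, which exports cholesterol to high-density lipoprotein, had 6473, 9258 and 5646, then 10560, 8390 and 10118, then 9495, 9812 and 10583 in the same order of groups. Empty vector replicate 2 reached above an ETV6-NCOA2 library but stayed just below the KAT6A-NCOA2 libraries (log2 fold change 0.51 ± 0.16 with KAT6A-NCOA2, adjusted p = 0.040). Soat1, which esterifies cholesterol for storage in droplets, had 5891, 7399 and 5858 with the empty vector and 7904, 8551 and 9248 with KAT6A-NCOA2. Those groups did not overlap (0.43 ± 0.11, adjusted p = 0.016), and ETV6-NCOA2, at 7613, 6723 and 7783, overlapped the controls. Without empty vector replicate 2, Abca1, Abcg1 and Soat1 also passed with ETV6-NCOA2, at log2 fold changes of 0.60, 0.67 and 0.32 (adjusted p = 0.011, 0.0063 and 0.048), where 6.72% of all tested genes were higher. With Srebf2, Insig1 and Stard4, which were lower in that fit, this makes 6 of the 10. In either direction 12.8% of all tested genes were called there, with 6.12% lower.

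Uptake and transport inside the cell were represented by Mylip and Stard4. Mylip encodes the ubiquitin ligase IDOL, an LXR target that marks lipoprotein receptors for degradation. It had 1794, 1729 and 1908 with the empty vector and 2078, 1702 and 1982 with KAT6A-NCOA2, so unlike Abca1 and Abcg1 it overlapped between groups (log2 fold change 0.08 ± 0.11, adjusted p = 0.61). Stard4, a carrier of sterol between membranes and a target of SREBP, had 1393, 909 and 1354 against 907, 705 and 670 with KAT6A-NCOA2. The highest fusion library almost equalled empty vector replicate 2, and the log2 fold change was -0.67 ± 0.17 (adjusted p = 0.018). With ETV6-NCOA2 Stard4 had 1083, 941 and 837 and did not pass (-0.34, adjusted p = 0.30), but it passed without empty vector replicate 2 (-0.53, adjusted p = 0.031). Of the 7 genes in these 10 called with KAT6A-NCOA2, Insig2 and Abca1 were called in all 6 fits that left out a library. The count was 2 without empty vector replicate 1 or 3 or KAT6A-NCOA2 replicate 2 or 3. In those fits 1779 to 2298 of all tested genes were called, against 3488 with all libraries.

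Levels can be compared between genes only per length. Per kilobase of merged exons, the efflux and storage genes were the most abundant of the 30 in the empty vector cells, at 976 ± 259 normalized counts for Abcg1, 654 ± 128 for Abca1 and 652 ± 89.9 for Soat1 (SD, n = 3). Mylip followed at 560 ± 28.0. Among the synthesis enzymes, Mvd stood at 436 ± 97.9, Ebp at 369 ± 24.0 and Hmgcs1 at 360 ± 94.6, which are indistinguishable within their spread, and Idi1 was the least abundant at 27.1 ± 9.31. With KAT6A-NCOA2, Dhcr7 reached 488 ± 20.9 per kilobase from 319 ± 17.8, which made it the most abundant of the 20, while Lbr went from 273 ± 95.9 to 67.6 ± 18.5.

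Neighbouring pathways were examined through 5 further lists, in which the named genes are those past the test with the largest changes. In fatty acid synthesis, 7 of 15 tested genes fell with KAT6A-NCOA2 and 1 rose, where 13.7% of all tested genes were lower and 11.6% higher. Without empty vector replicate 2, 11 fell and 1 rose, where 15.6% of all tested genes were lower and 15.8% higher. The largest falls were in the elongase Elovl6 (log2 fold change -1.75), the fatty acid synthase Fasn (-1.29), the desaturase Scd1 (-0.95) and the acetoacetyl-CoA synthetase Aacs (-0.93). With ETV6-NCOA2, Elovl6 (-1.18) and Aacs (-0.73) fell and no other gene of that list passed by limma, where 1.82% of all tested genes were lower. In that contrast 13 of the 15 had a lower mean and 11 had an unadjusted limma p below 0.05. DESeq2 called 5 of them and edgeR 2. Without empty vector replicate 2, 8 fell and 1 rose with this fusion, where 6.12% of all tested genes were lower and 6.72% higher. In the list of LXR targets and lipoprotein handling, 2 of 13 genes rose with KAT6A-NCOA2, the lipoprotein lipase Lpl (1.44) and the receptor Lrp1 (0.89), a share near the 11.6% of all tested genes called higher, and 0 passed with ETV6-NCOA2 by limma (4 at an unadjusted p below 0.05, 1 by DESeq2, 0 by edgeR). Lpl had 29623, 75518 and 30768 in empty vector replicates 1, 2 and 3, so replicate 2 stood apart here also. The whole list summed to 67951, 129732 and 73362 in these libraries, so Lpl weighs heavily in its sum. Without empty vector replicate 2, 5 of the 13 rose and 1 fell with KAT6A-NCOA2, where 15.8% of all tested genes were higher and 15.6% lower. With ETV6-NCOA2 3 of the 13 rose, where 6.72% of all tested genes were higher.

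The lists of sterol traffic, SREBP processing and isoprenoid use had 4, 1 and 2 genes past the test with KAT6A-NCOA2, where 25.4% of all tested genes were called. Of 13 genes of sterol traffic, Gramd1b, a carrier of plasma membrane cholesterol, Nceh1, a cholesteryl ester hydrolase, and Osbpl9 rose with KAT6A-NCOA2 (log2 fold changes 0.64, 0.49 and 0.19), and Tmem97 fell (-0.64). Without empty vector replicate 2, 5 rose and 2 fell with KAT6A-NCOA2, where 15.8% of all tested genes were higher and 15.6% lower. With ETV6-NCOA2 2 rose and 1 fell in that case, where 6.72% of all tested genes were higher and 6.12% lower. Of 12 genes that process or degrade SREBP and its partners, the ubiquitin ligase March6 rose (0.33) and no other passed. Of 12 genes that use isoprenoids, Nus1, a subunit of the enzyme that makes dolichol precursors, rose (0.34) and Coq2, which acts in ubiquinone synthesis, fell (-0.37). With ETV6-NCOA2 0 of the 37 genes of these 3 lists passed by limma (3 at an unadjusted p below 0.05, 1 by DESeq2, 0 by edgeR), with all libraries in the fit. Between the fusions 0 of the 65 genes of all 5 lists passed by limma (11 at an unadjusted p below 0.05, 2 by DESeq2, 0 by edgeR, 2 with the replicate block).

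Genes of cell division and markers of cell types differed between the groups along with the cholesterol genes. The summed level of the 20 synthesis enzymes was 18741, 11978 and 16874 normalized counts in empty vector replicates 1, 2 and 3, 10091 to 12044 with ETV6-NCOA2 and 10622 to 11995 with KAT6A-NCOA2. The sum of 20 cell division genes was 32673, 21673 and 25821, then 16105 to 18015 and 11469 to 13649, and 10 of them fell with ETV6-NCOA2 and 19 with KAT6A-NCOA2. Of all tested genes, 1.82% were lower with ETV6-NCOA2 and 13.7% with KAT6A-NCOA2. For both sums empty vector replicate 2 was the lowest control, but for cell division it stayed above all fusion libraries.

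Markers of other cells moved as well. The sum of 10 mast cell and basophil markers was 64041 to 122000 with the empty vector, 24506 to 39245 with ETV6-NCOA2 and 10328 to 27505 with KAT6A-NCOA2 (5 and 9 of them lower by the test). That of 10 neutrophil markers was 13250 to 19207, 5692 to 11014 and 993 to 1672 (3 and 9 of 9 tested lower), with Ltf and Camp at 0 in some libraries and Camp under 10 in every library. Of the 9 tested, 3 had a higher mean with ETV6-NCOA2. Among them S100a8 (log2 fold change 1.16) and S100a9 (1.33) were higher in every ETV6-NCOA2 library than in any control without passing the test. Progenitor markers (8) summed to 14666 to 21974, 10176 to 13790 and 6262 to 9782 (2 and 4 lower by the test). Erythroid markers (8) summed to 2260 to 4620, 1285 to 2019 and 1100 to 1795 (2 and 5 lower). Not every marker followed its sum. With ETV6-NCOA2, 3 progenitor and 2 erythroid markers had a higher mean than with the empty vector, and with KAT6A-NCOA2 0 and 3 did. Empty vector replicate 2 was the lowest control in each of these sums.

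The label of lineage-negative cells refers to the selection before the 5 days of culture, and macrophage markers were abundant in all groups. Their sum over 10 genes was 166570 to 200783 with the empty vector, 172893 to 212355 with ETV6-NCOA2 and 207146 to 232772 with KAT6A-NCOA2, and 0 and 3 of them rose. The LXR and lipoprotein list summed to 67951 to 129732, 121438 to 157009 and 161630 to 199382, and empty vector replicate 2 was the highest control in both. Lpl weighs heavily in the LXR and lipoprotein sum, which does not show a rise across that list. By limma 2 of its 13 genes rose with KAT6A-NCOA2 and 0 with ETV6-NCOA2. Lymphoid markers (7 with values) summed to 422 to 634 with the empty vector, 404 to 651 with ETV6-NCOA2 and 61.9 to 141 with KAT6A-NCOA2, with Cd79a at 0 in some libraries. Of the 4 tested, Nkg7, a granule gene of cytotoxic cells, fell with KAT6A-NCOA2 (log2 fold change -3.84), where 13.7% of all tested genes were lower. Stromal and endothelial markers (7 with values) summed to 1763 to 2443, 1520 to 1697 and 1424 to 1481, with Col3a1 at 0 in some. The part of cell division and of cell mixture in the results for the 30 genes was not tested.

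**Figure D4:**
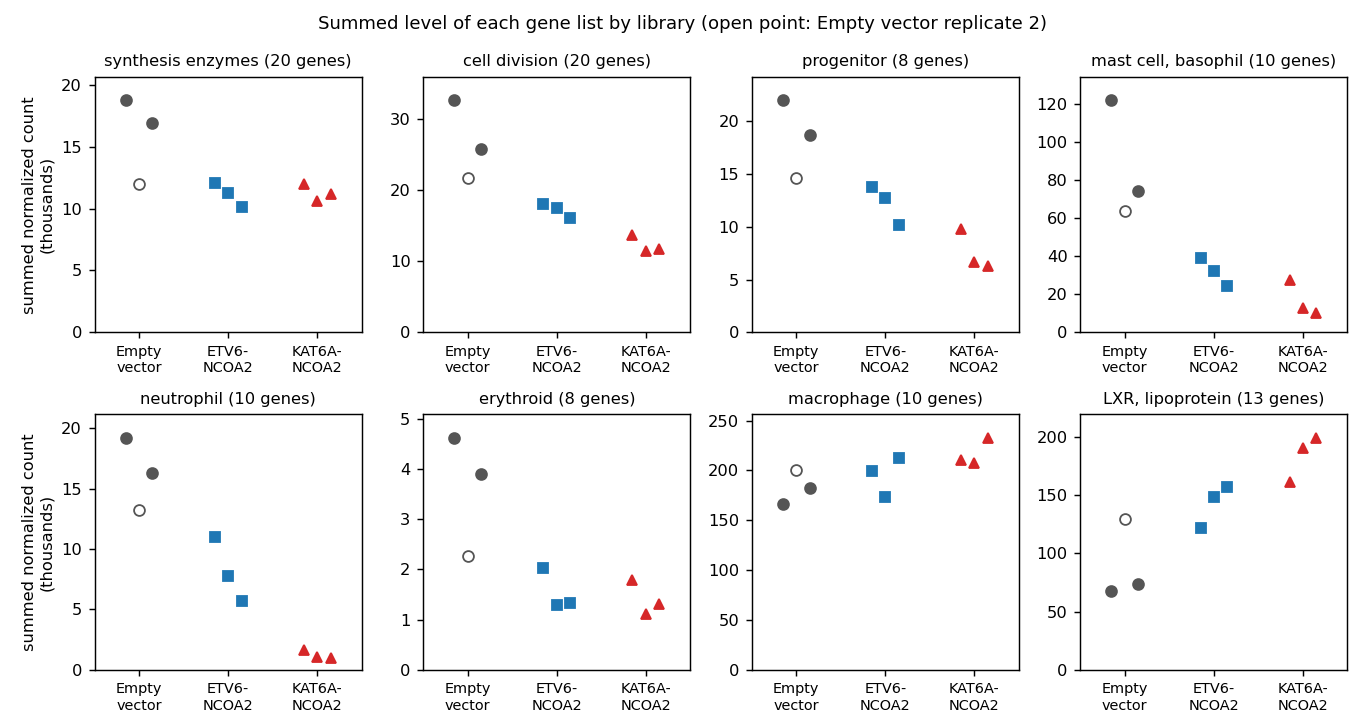
Summed normalized counts of 8 gene lists in each of the 9 libraries, on axes that start at 0, with empty vector replicate 2 as an open circle. The synthesis enzymes, cell division, progenitor, mast cell, neutrophil and erythroid lists are highest in empty vector replicates 1 and 3, the LXR and lipoprotein list is highest with KAT6A-NCOA2, and the open circle is the empty vector library closest to the fusions in each panel. Lpl weighs heavily in the LXR and lipoprotein sum.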

How the data were processed

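The authors' deposited table gives normalized counts for 17266 genes in 9 libraries, a signal that the authors scaled by library. The build was GRCm38, and HTSeq, DESeq2, cutadapt and STAR 2.4.2a are listed without their order, per the submitters' processing notes. Every value was a whole multiple of the worth of 1 read within 0.01 normalized counts (100% of values in each library), which gave back whole reads (17.1 to 20.4 M per library). Strand use in counting is not given in the sources used here.

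The tested genes reached a value of 10 in 3 or more libraries (13750, with 3516 left out), and all 30 members were among them. limma 3.58.1 in R 4.3.3 was fitted to log2(value + 1) with eBayes trend on all 9 libraries, with 1 coefficient per group. Fold changes are on that scale, with SE, and p-values were adjusted by Benjamini-Hochberg over all tested genes within a comparison and called below 0.05. The fit was tested on simulated data. Alternatives were DESeq2 1.42.0 and edgeR 4.0.16 with TMM on the recovered reads, TMM-scaled values, other pseudocounts and filters, only the 6 libraries compared, a replicate block, and each library left out.

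Equally numbered libraries were checked for pairing by correlating their deviations from the group means across genes. The labels do not say what a number stands for. For the 2 fusions, r was 0.30 for number 1, 0.20 for number 2 and 0.29 for number 3, so the blocked value is given there where it changes a call. The block was fitted to all 9 libraries, the empty vector ones included, and a blocked fit of the fusion libraries alone was not run.

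Promoter windows are RefSeq's. Coordinates and exon lengths came from GENCODE on GRCm38, and shared sequence was counted as words of 50 bases. The members, the further lists, the tests and the naming rule (all 30 members, and up to 4 per further list, past the test with the largest change) were chosen with earlier results of these data known.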

Additional observations from a re-analysis of the deposited data

How the results depend on the processing

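Against the empty vector, ETV6-NCOA2 gave 390 genes called, and 1016 with DESeq2, 174 with only the 6 libraries compared and 1255 with the replicate block. The synthesis enzymes called lower were 2, and 12 with DESeq2, 6 with edgeR, 0 with only 6 libraries, 1 with a pseudocount of 0.1 and 11 with the replicate block. The control, uptake and efflux genes called were 0, and 2, 1 and 1 with DESeq2, edgeR and the replicate block. With each replicate left out in turn, these 3 counts ran from 61 to 1765, from 0 to 15 and from 0 to 6. For KAT6A-NCOA2 against empty vector, 3488 genes, 12 enzymes lower and 7 other members became 1779 to 4320, 6 to 16 and 2 to 8 with a replicate left out, and other settings kept the counts within 1.5 times. Between the fusions, 425 genes became 793 with DESeq2, 823 with only 6 libraries and 983 with the replicate block, and 163 to 421 with a replicate left out. There the enzymes lower were 1, then 2 with only 6 libraries and 0 to 1 with a replicate left out, and the enzymes higher were 0, then 1 with DESeq2, 1 with the replicate block and 0 to 1 with a replicate left out. The cause of these shifts was not tested. Equally numbered libraries correlated at 0.31, 0.05 and -0.08 (empty vector and ETV6-NCOA2) and at 0.39, 0.17 and -0.03 (empty vector and KAT6A-NCOA2), so there the numbers were not taken as pairs.

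Signs turned only in log2 fold changes near 0 that were not called. Idi1 between the fusions went from 0.02 to -0.012 with DESeq2 and to -0.0084 with edgeR. With a replicate left out, the values against empty vector ran from -0.0081 to 0.13 (Ggps1) and -0.14 to 0.0011 (Srebf1) for ETV6-NCOA2, and from -0.022 to 0.081 (Ggps1) and -0.11 to 0.026 (Scap) for KAT6A-NCOA2. Between the fusions they ran from -0.017 to 0.10 (Pmvk), -0.053 to 0.041 (Mvd), -0.13 to 0.26 (Idi1), -0.089 to 0.035 (Ggps1), -0.32 to 0.059 (Fdft1), -0.11 to 0.052 (Tm7sf2), -0.051 to 0.13 (Msmo1), -0.22 to 0.014 (Nsdhl), -0.030 to 0.14 (Hsd17b7), -0.14 to 0.057 (Mylip) and -0.054 to 0.11 (Abcg1). With 3 libraries per group, small differences cannot be told from none.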
